A study of Homo sapiens with 12 samples.

Results

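The 10 genes described here encode the ligands, receptors and latency proteins of transforming growth factor beta (TGF-beta), with a protein that activates it and a matrix protein that it induces. They were taken by name from the 60664 genes of the deposited count table, and all 10 were found. TGFB1, TGFB2 and TGFB3 are the ligands, TGFBR1, TGFBR2 and TGFBR3 the receptors, LTBP1 and LTBP3 the latency proteins, THBS1 the activator and TGFBI the induced matrix protein. The samples were SK-N-SH cells, an established human neuroblastoma line of neuron-like and flat, adherent cells, grown on substrates of 1, 8 or 30 kPa. The kilopascal is a unit of elastic modulus, and a higher value means a stiffer surface. RNA of 4 libraries was sequenced at each stiffness. The labels give no other treatment and no substrate material, and do not say whether libraries came from separate cultures. The p-values therefore set differences between stiffnesses only against the spread of libraries within a stiffness, and that spread may be technical.

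Cells secrete TGF-beta in a latent form, with its propeptide wrapped around the growth factor. Latent TGF-beta binding proteins (LTBPs) tie that complex to the extracellular matrix, and integrins that pull on it, proteases or thrombospondin-1, the product of THBS1, can release the active ligand. The ligand binds the type II receptor TGFBR2, which phosphorylates the type I receptor TGFBR1, and TGFBR1 phosphorylates SMAD2 and SMAD3. Because pulling on the latent complex works against the resistance of the matrix, stiffness and TGF-beta activation are linked in connective tissue.

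Each library at 1 kPa held 1.43e+07 to 1.59e+07 counts. The 8 kPa libraries held 1.50e+07 to 2.53e+07 counts, and those on the stiffest surface 2.39e+07 to 2.78e+07. All libraries at 1 kPa and replicate 1 at 8 kPa were shallow, with totals under 2e+07, and the other 7 were deep. A difference of 30 kPa against 1 kPa and a difference of deep against shallow libraries therefore cannot be told apart. The unit of level is CPM, the read count relative to the TMM-normalized library total. Each fold change is a log2 fold change with its standard error (SE) from edgeR's quasi-likelihood F-test, with p adjusted over 17960 tested genes by the Benjamini-Hochberg method and a threshold of 0.05.

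THBS1 and TGFBI had the largest differences between stiffnesses among the members, and their promoters are shown with the motifs searched for. The stretches are on the plus strand of GRCh38.p14 and come from RefSeq. They end at the base before the annotated start of the gene, at chr15:39580829-39581078 for THBS1 and chr5:136028738-136028894 for TGFBI, where the stretch stops before the earlier of the RefSeq and GENCODE starts. Capitals mark a match.
THBS1 promoter: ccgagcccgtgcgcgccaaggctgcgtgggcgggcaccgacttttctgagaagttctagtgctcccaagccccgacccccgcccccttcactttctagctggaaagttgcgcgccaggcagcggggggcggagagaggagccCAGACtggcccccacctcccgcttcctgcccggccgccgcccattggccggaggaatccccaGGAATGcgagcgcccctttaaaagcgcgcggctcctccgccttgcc
TGFBI promoter: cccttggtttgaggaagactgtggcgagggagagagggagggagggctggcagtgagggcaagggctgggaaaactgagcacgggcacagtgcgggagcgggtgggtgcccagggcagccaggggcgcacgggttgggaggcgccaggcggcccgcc
The searched motifs were GGAATG, bound by the TEAD factors that carry YAP and TAZ signals, CAGAC, a SMAD box, and TGANTCA, bound by AP-1. Both strands of the 250 bases before each RefSeq start were read, and the motifs do not overlap one another in the stretches printed. THBS1 held the TEAD letters 46 bases and the SMAD letters 108 bases before its start. TGFBI held none of the 3 motifs in these 250 bases. Over the 10 members, 3 had the TEAD letters (TGFB2, TGFBR1 and THBS1), 5 the SMAD letters (TGFB2, TGFB3, TGFBR1, LTBP1 and THBS1) and 0 the AP-1 letters. Those counts take a gene with a match before any of its starts. By window, of which the members had 22 (several for some genes), 3 held the TEAD letters, 10 the SMAD letters and 0 the AP-1 letters. Over 35116 RefSeq promoter windows the shares were 11.9% for TEAD, 38.0% for SMAD and 6.57% for AP-1. A match describes letters only and is not a measured binding site.

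**Figure D1:**
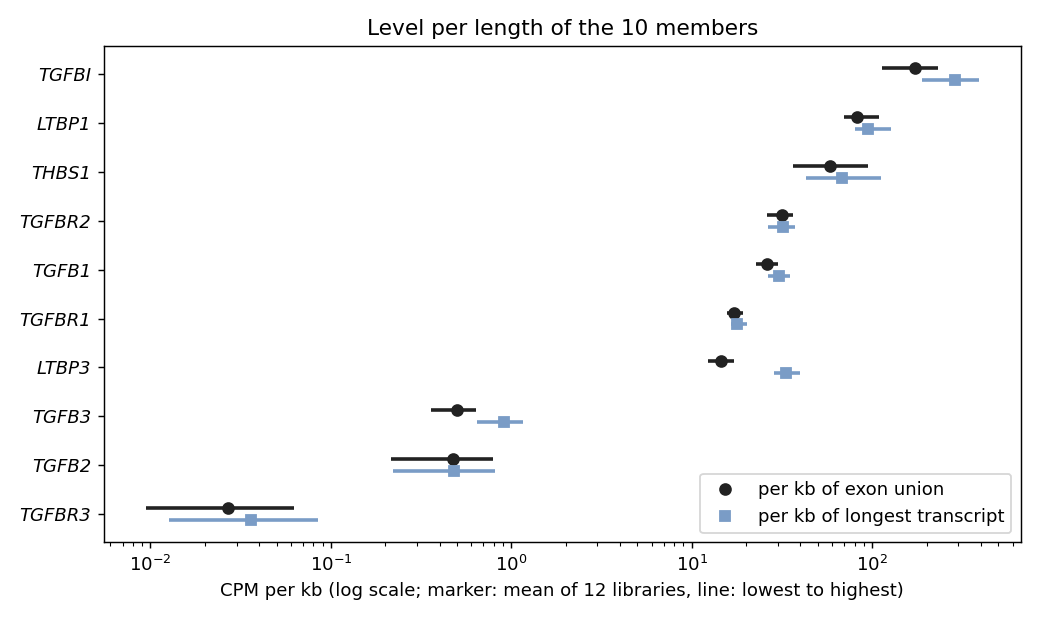
Level per length of the 10 members in CPM per kb on a log axis. Markers are means over the 12 libraries, lines run from the lowest to the highest library, circles divide by the exon-union length and squares by the longest transcript. TGFBI is highest at 172 CPM per kb of exon union and TGFBR3 lowest at 0.0269.

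The members spanned a wide range of levels, and the order is that of a secreted matrix gene first and of the co-receptor last. Divided by the length of all annotated exons, the mean over the 12 libraries was 172 CPM per kb for TGFBI, 81.9 for LTBP1 and 58.1 for THBS1. TGFBR2 followed at 31.4 CPM per kb, TGFB1 at 26.1, TGFBR1 at 17.1 and LTBP3 at 14.4. TGFB3 at 0.499, TGFB2 at 0.474 and TGFBR3 at 0.0269 CPM per kb were far lower. The ranges over libraries overlapped between LTBP1 and THBS1, between TGFBR2 and TGFB1, between TGFBR1 and LTBP3, and between TGFB3 and TGFB2. Those of THBS1 (lowest 36.54 CPM per kb) and TGFBR2 (highest 36.56) overlapped narrowly. Within a library, the level per kb of LTBP1 was above that of THBS1 in 12 of 12 libraries and that of TGFBR2 above that of TGFB1 in 12 of 12. TGFBR1 was above LTBP3 in 10 of 12 libraries and TGFB3 above TGFB2 in 8 of 12, so those neighbours kept no single order. Dividing by the longest transcript placed LTBP3 at 33.5 CPM per kb, in rank 4 in place of rank 7.

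Within each family 1 gene took most of the level per length at every stiffness. TGFB1, the best known of the ligands and the main one in immune and connective tissue, took 96.2% ± 0.516 of the summed ligand level at 1 kPa, 96.6% ± 0.407 on 8 kPa and 96.5% ± 0.327 on 30 kPa (SD over 4 libraries each). TGFBR2 took 65.0% ± 2.70, 63.6% ± 3.05 and 65.4% ± 2.89 of the receptor level at 1, 8 and 30 kPa. LTBP1 took 86.1% ± 1.42 of the summed level of LTBP1 and LTBP3 at 1 kPa, 85.2% ± 2.15 on 8 kPa and 83.4% ± 2.56 on 30 kPa. These shares do not depend on how libraries are scaled, and their ranges at the 3 stiffnesses overlapped for TGFB1, TGFBR2 and LTBP1. Ranges of the share of LTBP1 were 84.6% to 87.9% at 1 kPa and 80.2% to 86.3% at 30 kPa.

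**Figure D2:**
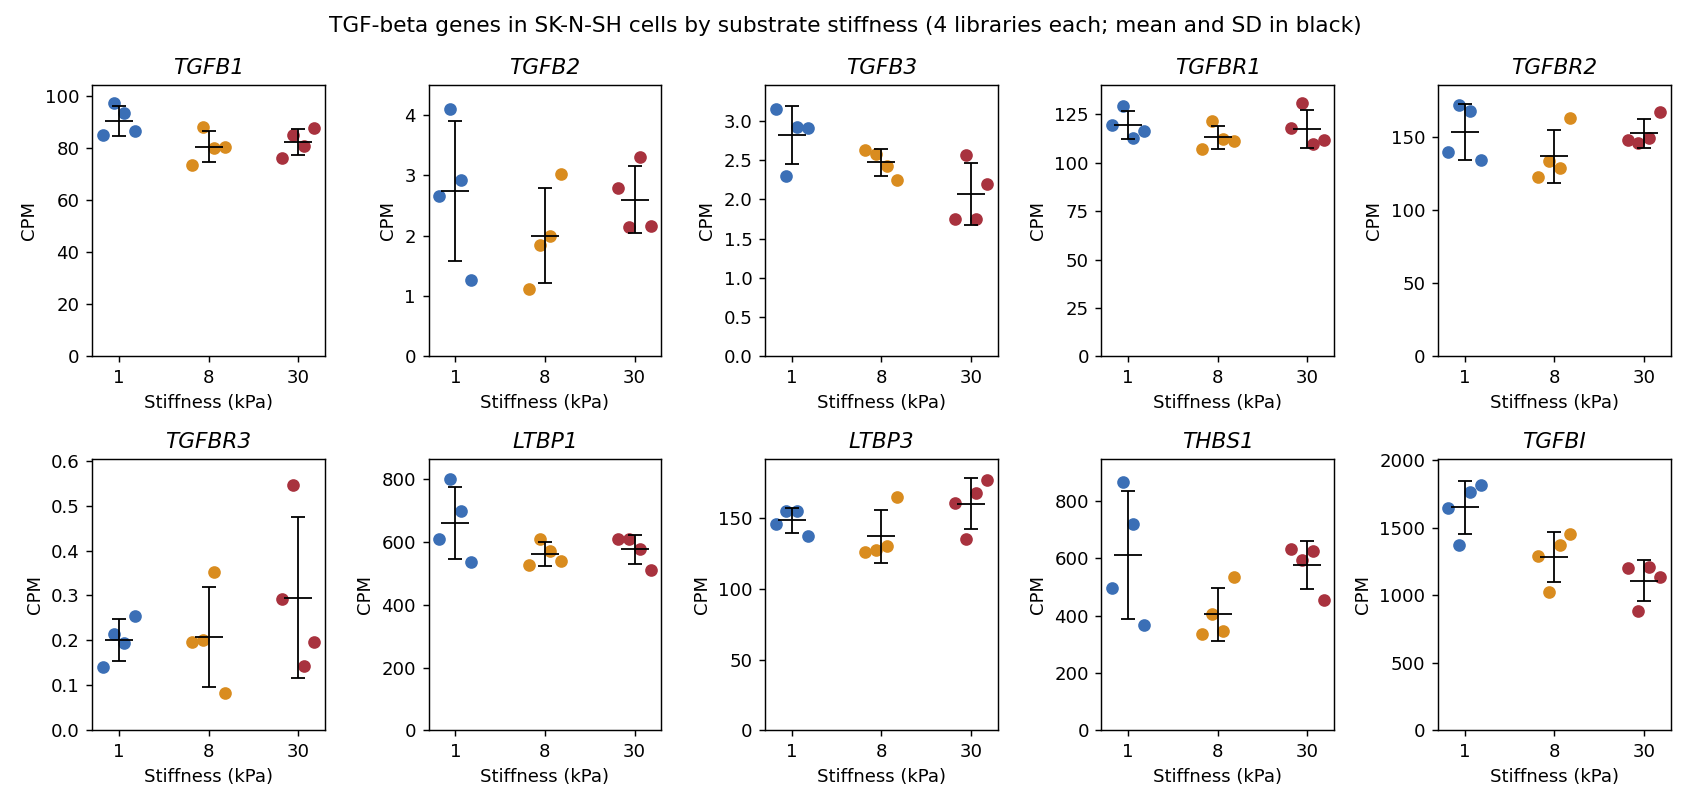
CPM of the 10 members in each of the 12 libraries by stiffness in kPa. Points are libraries, black marks are means and bars are SD over 4 libraries, and every axis starts at 0. TGFBI at 30 kPa lies wholly below 1 kPa, and the groups of the other 9 genes overlap between 30 and 1 kPa.

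Among the ligands no difference passed the test in any pair of stiffnesses. TGFB1 (ENSG00000105329, chromosome 19) had 85.2, 97.3, 93.6 and 86.6 CPM in replicates 1 to 4 at 1 kPa. It had 73.6, 88.3, 80.3 and 80.7 CPM at 8 kPa and 76.4, 85.0, 80.9 and 88.0 CPM at 30 kPa. Groups overlapped in every pair, although most libraries at 8 and 30 kPa lay below all those at 1 kPa. In edgeR, 8 against 1 kPa gave log2 -0.17 (SE 0.0656, adjusted p = 0.100), 30 against 8 kPa gave 0.03 (SE 0.0650) and 30 against 1 kPa gave -0.13 (SE 0.0654, adjusted p = 0.284). HNRNPUL1, on the opposite strand, shares 215 exonic bases with TGFB1 and had 146 to 205 CPM, and without a stated strand setting reads of the overlap cannot be told apart.

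TGFB2 (ENSG00000092969, chromosome 1), the ligand with low affinity for TGFBR2 alone, was read 17 to 92 times per library. In replicates 1 to 4 it had 2.66, 4.09, 2.93 and 1.27 CPM at 1 kPa, 1.12, 1.85, 1.99 and 3.03 CPM at 8 kPa, and 2.80, 2.15, 3.30 and 2.15 CPM at 30 kPa. Libraries of 1 group differed by more than the group means did. Its log2 fold change was -0.40 (SE 0.317, adjusted p = 0.411 in edgeR) at 8 against 1 kPa and 0.35 (SE 0.298, adjusted p = 0.565) at 30 against 8 kPa. TGFB3 (ENSG00000119699, chromosome 14), known from palate development, averaged 2.82 ± 0.364, 2.47 ± 0.169 and 2.07 ± 0.392 CPM on 1, 8 and 30 kPa (SD over 4 libraries each). Its log2 fold change at 30 against 1 kPa was -0.45 (SE 0.160, adjusted p = 0.142 in edgeR), and 2.57 CPM in 30 kPa replicate 2 lay above 2.30 CPM in 1 kPa replicate 2.

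The signalling receptors passed the test in no pair. TGFBR1 (ENSG00000106799, chromosome 9), the type I kinase, averaged 120 ± 7.03, 113 ± 6.04 and 118 ± 9.73 CPM on 1, 8 and 30 kPa (SD over 4 libraries each). Its log2 fold changes were -0.08 (SE 0.0653) at 8 against 1 kPa, 0.06 (SE 0.0648) at 30 against 8 kPa and -0.02 (SE 0.0651) at 30 against 1 kPa, with the lowest adjusted p at 0.436 in edgeR. TGFBR2 (ENSG00000163513, chromosome 3), the type II kinase that binds ligand first, had 140, 172, 168 and 134 CPM in replicates 1 to 4 at 1 kPa. At 8 kPa it had 123, 134, 129 and 164 CPM, and at 30 kPa 148, 146, 150 and 168 CPM. At 8 kPa and again at 30 kPa replicate 4 was the highest library, and the groups overlapped in every pair. Its log2 fold change was -0.16 (SE 0.0973, adjusted p = 0.276 in edgeR) at 8 against 1 kPa and 0.16 (SE 0.0967, adjusted p = 0.410) at 30 against 8 kPa. TGFBR3 (ENSG00000069702, chromosome 1), the co-receptor betaglycan that presents TGFB2, was read 2 to 4 times per library at 1 kPa, 2 to 9 times at 8 kPa and 4 to 13 times at 30 kPa. It was the 1 member that did not pass the low-count filter, and no difference in it was detectable at this depth.

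The latency proteins were abundant, and neither passed the test. LTBP1 (ENSG00000049323, chromosome 2), which anchors the latent complex to fibrillin and fibronectin fibres, had 610, 803, 698 and 536 CPM at 1 kPa. It had 528, 611, 572 and 539 CPM at 8 kPa and 611, 609, 580 and 512 CPM at 30 kPa. The 1 kPa libraries spread over the widest range and reached below most of the others. The log2 fold change was -0.23 (SE 0.106, adjusted p = 0.148 in edgeR) at 8 against 1 kPa and -0.20 (SE 0.106, adjusted p = 0.340) at 30 against 1 kPa. Without 1 kPa replicate 4, LTBP1 passed the test at 8 against 1 kPa (log2 -0.33, adjusted p = 0.0270 in edgeR). In that fit 3563 of 18235 tested genes passed, beside 2472 in the fit of all libraries.

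LTBP3 (ENSG00000168056, chromosome 11), which is mutated in a disorder of teeth and bone growth, had 146, 155, 155 and 137 CPM at 1 kPa. At 8 kPa 3 libraries had 126, 127 and 130 CPM and replicate 4 had 165. At 30 kPa the libraries had 161, 135, 168 and 177 CPM. The only tested member with a positive fold change at 30 against 1 kPa was LTBP3, with log2 0.11 (SE 0.0943, adjusted p = 0.570 in edgeR). At 30 against 8 kPa its log2 fold change was 0.22 (SE 0.0940, adjusted p = 0.240 in edgeR). Without 8 kPa replicate 4 that difference passed the test (log2 0.33, adjusted p = 0.0359 in edgeR). In that fit 1026 of 18229 tested genes passed, beside 0 in the fit of all libraries.

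THBS1 (ENSG00000137801, chromosome 15), which encodes a secreted glycoprotein that can free TGF-beta from its propeptide, had its lowest mean at 8 kPa. In replicates 1 to 4 it had 498, 867, 721 and 367 CPM at 1 kPa, 335, 405, 346 and 535 CPM at 8 kPa, and 633, 594, 627 and 456 CPM at 30 kPa. The 1 kPa libraries differed more among themselves than the group means did, and 1 kPa replicate 4 lay among the 8 kPa libraries. The mean was 405 ± 92.0 CPM at 8 kPa, against 613 ± 223 CPM at 1 kPa (SD, n = 4 each), and the mean at 30 kPa was 578 ± 83.1 CPM. The log2 fold change was -0.60 (SE 0.221, adjusted p = 0.0846 in edgeR) at 8 against 1 kPa, 0.51 (SE 0.221, adjusted p = 0.248) at 30 against 8 kPa and -0.09 (SE 0.220, adjusted p = 0.883) at 30 against 1 kPa. Set against the average of the softest and stiffest groups, 8 kPa differed by -0.55 on the log2 scale (SE 0.196, adjusted p = 0.0905 in edgeR). That difference passed the test in 2 of 12 fits that left out a library, without 1 kPa replicate 4 (adjusted p = 0.0220 in edgeR) and without 8 kPa replicate 4 (0.0310), and without a low-count filter (0.00864). Over all tested genes, 2614 of 18235, 2870 of 18229 and 1604 of 35940 passed in these fits, in that order. Within the shallow libraries, the 1 at 8 kPa had 335 CPM, against a mean of 613 at 1 kPa, and within the deep ones the mean was 578 CPM at 30 kPa, against 429 at 8 kPa. THBS1 passed the test at 8 against 1 kPa without 1 kPa replicate 4 (log2 -0.78, adjusted p = 0.0137 in edgeR) and without 8 kPa replicate 4 (log2 -0.76, adjusted p = 0.0318), and not in the other 10 fits that left out a library. In that pair 3563 of 18235 tested genes passed without 1 kPa replicate 4 and 3465 of 18229 without 8 kPa replicate 4.

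The order of the libraries at 1 kPa was shared by several members, a pattern chosen after its values were seen. From high to low the order was replicate 2, 3, 1 and 4 for TGFB2, TGFBR2, LTBP1 and THBS1, which are 4 of 9 tested members. Over all tested genes 9.67% had this order. At 8 kPa the highest library was replicate 4 for TGFB2, TGFBR2, LTBP3, THBS1 and TGFBI, as it was for 32.2% of tested genes. TGFBI ran another way at 1 kPa, where replicate 2 was its lowest library.

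TGFBI (ENSG00000120708, chromosome 5:136028895-136063818 on GRCh38) was the 1 member with a difference past the test. It encodes a secreted protein that binds integrins and collagens and is induced by TGF-beta in many cells. In replicates 1 to 4 it had 1647, 1370, 1761 and 1818 CPM at 1 kPa, 1287, 1024, 1371 and 1450 CPM at 8 kPa, and 1199, 882, 1207 and 1134 CPM at 30 kPa. Every library at 30 kPa lay below every library at 1 kPa, the 8 kPa libraries lay across the gap, and replicate 2 was the lowest library at each stiffness. TGFBI averaged 1106 ± 152 CPM at 30 kPa, against 1649 ± 199 CPM at 1 kPa (SD, n = 4 each). It fell by 0.58 on the log2 scale at 30 against 1 kPa (SE 0.126, adjusted p = 0.0309 in edgeR), to 0.671 times the level at 1 kPa. At 8 against 1 kPa the log2 fold change was -0.36 (SE 0.126, adjusted p = 0.0681 in edgeR), and at 30 against 8 kPa it was -0.21 (SE 0.125, adjusted p = 0.383). The test across all stiffnesses at once also called it (adjusted p = 0.0297 in edgeR).

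The call of TGFBI at 30 against 1 kPa was held in 6 of 12 fits that left out a library and lost without 1 kPa replicate 1 (0.0766) or 3 (0.0842) and without 30 kPa replicate 1 (0.0522), 2 (0.0677), 3 (0.0770) or 4 (0.0723), each an adjusted p in edgeR. The log2 fold change over these 12 fits ran from -0.66 to -0.48. Over all tested genes, 156, 153, 225, 217, 50 and 135 passed in the 6 fits that lost the call, in that order. In the 6 fits that held it, 237 to 676 passed, beside 437 in the fit of all libraries. With the depth class as a term the log2 fold change of TGFBI was -0.57 with an adjusted p of 0.502 in edgeR, and 0 of 17960 tested genes passed. Within the deep libraries the mean was 1106 CPM at 30 kPa, against 1282 CPM in the 3 deep libraries at 8 kPa, and within the shallow ones 8 kPa replicate 1 had 1287 CPM, against a mean of 1649 CPM at 1 kPa.

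**Figure D3:**
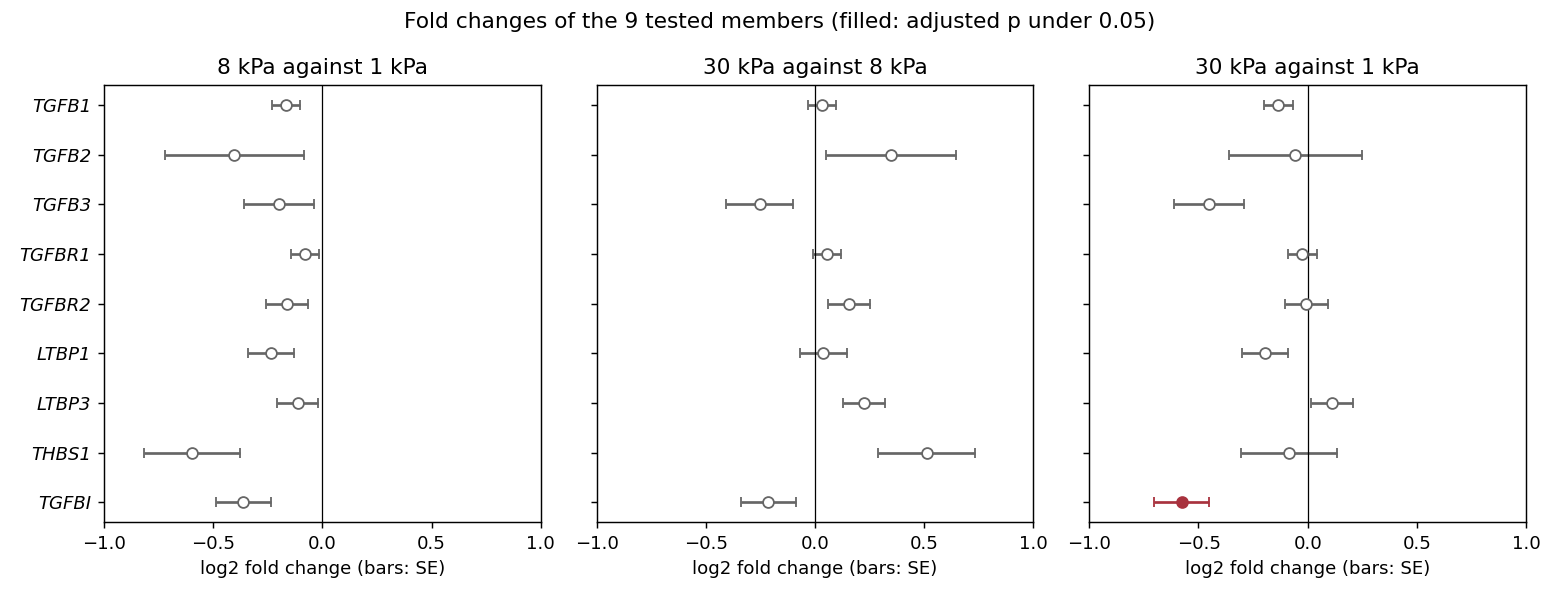
Log2 fold changes of the 9 tested members in the 3 pairs of stiffnesses, with SE as bars. Filled red points passed an adjusted p of 0.05 in edgeR. The 1 filled point is TGFBI at 30 against 1 kPa, at -0.58, and all 9 points lie left of 0 at 8 against 1 kPa.

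Counts of the members are set beside the shares of all tested genes. At 8 against 1 kPa 0 of the 9 tested members passed the test in edgeR, where 13.8% of all tested genes did. Of the members, 4 had an unadjusted p under 0.05, as did 5609 of 17960 tested genes. DESeq2 called 1 member, TGFBI, and 3153 of 17959 tested genes. All 9 fold changes were negative, as were those of 52.4% of tested genes, with a median of -0.20 beside -0.01 over all genes. At 30 against 8 kPa 0 members passed, where 0.0% of tested genes did in edgeR, although 3218 genes had an unadjusted p under 0.05 and DESeq2 called 430. Of the members, 2 had an unadjusted p under 0.05 there, none was called by DESeq2 or limma-voom, and 7 of 9 fold changes were positive, as were 50.9% over all genes, with a median of 0.06. No groups of a member failed to overlap at 8 against 1 or 30 against 8 kPa, where those of 16.8% and 11.3% of tested genes did not overlap. At 30 against 1 kPa 1 member passed, where 2.43% of tested genes did, and 1.33% were lower and passed. In that pair 8 of 9 fold changes were negative, as were those of 8979 of 17960 tested genes, with a median of -0.09 beside 0.00 over all genes. Groups of 1 member, TGFBI, did not overlap, where 11.4% of tested genes had groups that did not overlap. The pairs share groups of libraries and are not independent of one another. For 8 kPa against the average of the softest and stiffest groups, 0 members passed in edgeR, where 7.08% of tested genes did. There 1 member had an unadjusted p under 0.05, as did 4938 of 17960 tested genes. Without 8 kPa replicate 4, TGFBR2 (adjusted p = 0.0391) and LTBP3 (0.0239) passed this comparison in edgeR beside THBS1, where 2870 of 18229 tested genes did. For any difference among the stiffnesses 1 member passed, where the share of tested genes was 9.16%.

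**Figure D4:**
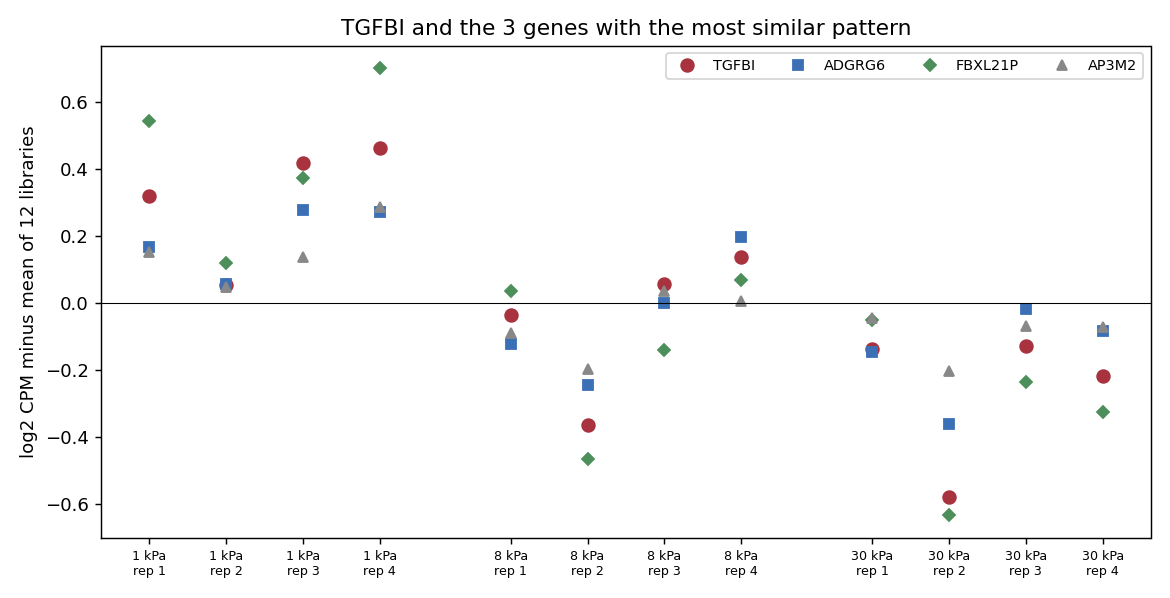
Log2 CPM of TGFBI, ADGRG6, FBXL21P and AP3M2 in each of the 12 libraries, minus the mean of that gene over the libraries. Points are libraries, ordered by stiffness and replicate number. All 4 genes are above 0 in every library at 1 kPa and below 0 in every library at 30 kPa.

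The genes most like TGFBI over the 12 libraries were sought among 11673 tested genes with a symbol and a mean of at least 5 CPM. By Pearson's r of log2 CPM these were ADGRG6 (0.960), an adhesion G protein-coupled receptor, FBXL21P (0.956), a pseudogene, and AP3M2 (0.948), a subunit of an adaptor complex for vesicles. The libraries share stiffness and depth class, so r describes the pattern only. FBXL21P had 45.9, 30.6, 40.3 and 37.9 CPM in replicates 1 to 4 at 30 kPa, against 69.3, 51.6, 61.5 and 77.2 CPM at 1 kPa. It fell at 30 against 1 kPa (log2 -0.75, SE 0.142, adjusted p = 0.0169 in edgeR) and at 8 against 1 kPa (log2 -0.56, SE 0.142, adjusted p = 0.0219). It lies on chromosome 5 with TGFBI, ending 77.3 kb before the start of TGFBI. Whether the count of FBXL21P includes reads of related genes was not tested. ADGRG6 averaged 235 ± 23.3 CPM at 30 kPa, against 298 ± 21.2 CPM at 1 kPa (SD, n = 4 each; adjusted p = 0.0699 in edgeR). AP3M2 fell at 8 against 1 kPa (log2 -0.22, SE 0.0643, adjusted p = 0.0391 in edgeR), and at 30 against 1 kPa its adjusted p was 0.0521 in edgeR. Both calls of FBXL21P and that of AP3M2 were lost with the depth class as a term, under which 0 genes were called in these pairs.

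Of 19 other genes of latency and activation, 2 were lower and passed the test at 8 against 1 kPa, where 5.6% of all tested genes did, and none was higher, where 8.17% were. LTBP4, a latency protein mainly tied to TGFB1, had 15.4, 20.6, 15.9 and 16.5 CPM at 8 kPa, against 21.3, 22.7, 22.2 and 22.0 CPM at 1 kPa. It fell by 0.36 on the log2 scale (SE 0.0851, adjusted p = 0.0167 in edgeR). ITGAV, the integrin alpha chain that grips the propeptide, had 436, 473, 460 and 479 CPM at 8 kPa, against 506, 566, 536 and 541 CPM at 1 kPa. It fell by 0.22 on the log2 scale (SE 0.0547, adjusted p = 0.0216 in edgeR). For both genes the groups did not overlap. The median log2 fold change of the 19 genes was -0.19, and none passed at 30 against 8 or at 30 against 1 kPa. At 30 kPa LTBP4 averaged 20.5 ± 0.961 CPM and ITGAV 471 ± 9.04 CPM (SD, n = 4 each). Of 7 other type I, type II and auxiliary receptors, 6 were tested and none passed in any pair.

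Among 19 SMADs, their partners and inhibitors, 4 were higher and 1 lower past the test at 8 against 1 kPa, where 8.17% of all tested genes were higher and 5.6% lower. The higher ones were STRAP (log2 0.27, SE 0.0600, adjusted p = 0.0145 in edgeR), which binds both receptors, and FKBP1A (log2 0.25, SE 0.0632, adjusted p = 0.0213), which holds TGFBR1 inactive. SKI, a repressor of SMAD transcription, was higher as well (log2 0.22, SE 0.0639, adjusted p = 0.0343 in edgeR), as was the inhibitory SMAD6 (log2 0.35, SE 0.109, adjusted p = 0.0450), which is named after its value was seen. SKIL, a repressor of SMADs that TGF-beta induces, was the lower one. It had 72.3, 75.3, 70.6 and 75.5 CPM at 8 kPa, against 83.1, 86.5, 83.3 and 91.5 CPM at 1 kPa (log2 -0.23, SE 0.0567, adjusted p = 0.0202 in edgeR). SKIL also fell at 30 against 1 kPa (log2 -0.26, SE 0.0566, adjusted p = 0.0281 in edgeR), with 67.3, 78.7, 68.2 and 72.6 CPM at 30 kPa, and its groups overlapped in neither pair. The median over the 19 genes was -0.00 at 8 against 1 kPa and 0.04 at 30 against 1 kPa. The signal carriers SMAD2, SMAD3 and SMAD4 and the feedback genes SMAD7 and PMEPA1 passed in no pair. SMAD3 averaged 152 ± 8.57, 138 ± 31.9 and 148 ± 22.0 CPM on 1, 8 and 30 kPa (SD over 4 libraries each).

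**Figure D5:**
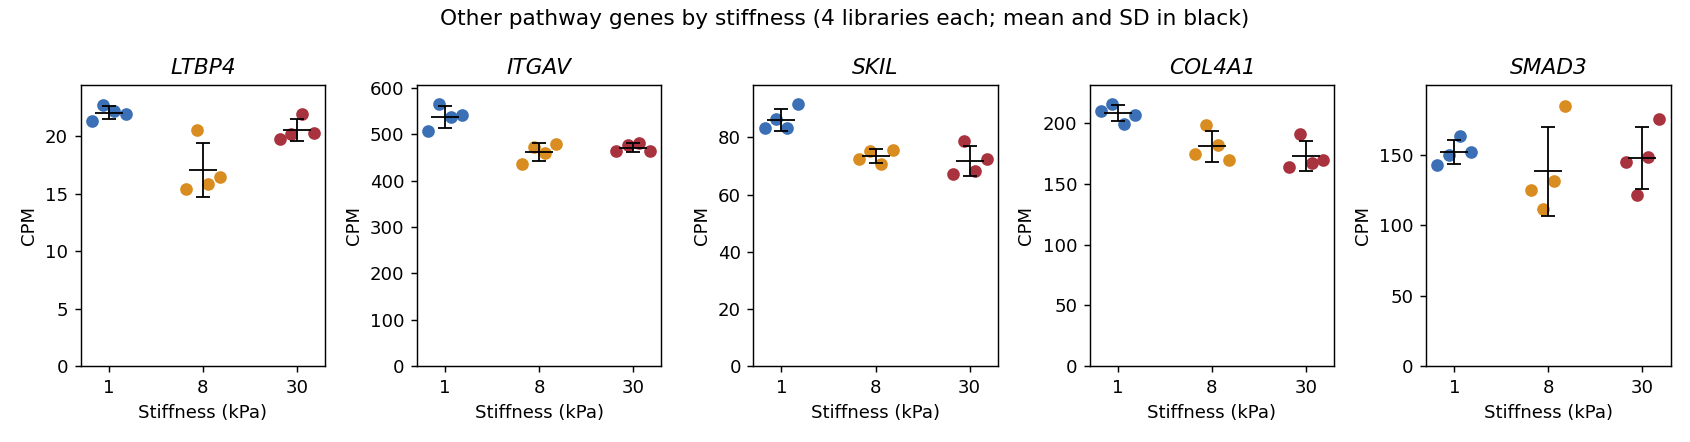
CPM of LTBP4, ITGAV, SKIL, COL4A1 and SMAD3 in each library by stiffness in kPa. Points are libraries, black marks are means and bars are SD over 4 libraries, and every axis starts at 0. SKIL and COL4A1 at 8 and 30 kPa lie below all 1 kPa libraries, and SMAD3 groups overlap.

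Of 24 genes known to respond to TGF-beta, 2 were lower and passed the test at 8 against 1 kPa and 2 at 30 against 1 kPa, SKIL and COL4A1 in both, and none was higher. Over all tested genes 5.6% were lower and passed at 8 against 1 kPa and 1.33% at 30 against 1 kPa. SKIL, SMAD7 and PMEPA1 stand in both this list and the SMAD list. COL4A1, a chain of basement membrane collagen, averaged 181 ± 12.7 CPM at 8 kPa, against 208 ± 6.67 CPM at 1 kPa (SD, n = 4 each; log2 -0.20, adjusted p = 0.0476 in edgeR). At 30 kPa it averaged 173 ± 12.3 CPM (log2 -0.27 against 1 kPa, adjusted p = 0.0427 in edgeR). CDKN2B, a cell cycle inhibitor, passed only the test across all stiffnesses, with 10.9 ± 1.25, 11.2 ± 1.11 and 8.22 ± 1.29 CPM at 1, 8 and 30 kPa. Each call of these pathway genes in a pair or across all stiffnesses was lost with the depth class as a term. Under that term 0 of 17960 tested genes were called at 8 against 1 kPa, at 30 against 1 kPa or across all stiffnesses. With 1 library left out in turn, SKIL held its call in 10 of 12 fits at 8 against 1 kPa and in 7 of 12 at 30 against 1 kPa, LTBP4 in 10, ITGAV in 9, STRAP in 11, FKBP1A in 8 and SKI in 7. COL4A1 held in 3 at 8 against 1 kPa and in 4 at 30 against 1 kPa.

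Some markers of cell state passed the test at 30 against 1 kPa, where 2.43% of all tested genes did. Of 10 mesenchymal neuroblastoma markers 2 passed and were lower, PRRX1 (log2 -0.35, adjusted p = 0.0144 in edgeR) and YAP1 (log2 -0.22, adjusted p = 0.0427). The median log2 fold change of the 10 was -0.14. The summed CPM of those 10 ran from 4973 to 5385 on 1 kPa, 4493 to 5269 on 8 kPa and 4250 to 4764 on 30 kPa. Of 7 fibroblast markers 1 passed, COL3A1, which fell (log2 -0.52, adjusted p = 0.0159 in edgeR). Summed CPM of the 7 was 1428 to 1718 at 30 kPa, against 1839 to 1954 at 1 kPa, and no marker was at 0. Of 12 adrenergic markers 11 were tested and 2 passed, both higher, PHOX2A among them (log2 0.52, adjusted p = 0.0475 in edgeR). The sums of the 12 were 1131 to 1303 CPM at 30 kPa, against 713 to 1184 CPM at 1 kPa. At 8 against 1 kPa, where TGFBI did not pass, 4 of the 11 were higher and passed, as did 8.17% of all tested genes. Of 6 endothelial markers 2 were tested and none passed in a pair, with a median log2 fold change of -0.87 at 30 against 1 kPa. PECAM1, an endothelial and platelet adhesion gene, averaged 1.64 ± 0.291 CPM at 30 kPa, against 5.50 ± 2.74 CPM at 1 kPa (SD, n = 4 each). Its log2 fold change was -1.75 (adjusted p = 0.0521 in edgeR), from 37 to 174 counts per library, and 8 kPa replicate 4 had 1.51 CPM. It passed the test across all stiffnesses (adjusted p = 0.0333 in edgeR), as did 9.16% of tested genes. With 1 library left out in turn, PRRX1 held its call in 11 of 12 fits, COL3A1 in 10, YAP1 in 3 and PHOX2A in 2. Each of these calls was lost with the depth class as a term, under which 0 genes were called in either pair or across all stiffnesses. Those of YAP1 and PHOX2A were also lost with library total alone, among other settings. In bulk RNA, fewer cells of a type and less RNA per cell cannot be told apart, and the part of these markers in the TGFBI result was not tested. All 7 immune markers were under 1 CPM in every library, and of 5 platelet markers GP9 and GP1BB were at 0 and the sum stayed at or under 2.08 CPM. Among 6 epithelial markers KRT5 was at 0 and 4 were tested, with none past the threshold.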

How the data were processed

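RNA of 12 libraries of SK-N-SH cells was measured, 4 at each stiffness. Raw counts for every gene in each library were deposited by the authors, and reads were aligned with HISAT2 to GRCh38, per the submitters' processing notes; the counting tool, annotation release and strand setting are not given in the sources used here. Of 60664 gene identifiers 60463 matched the name table and 42028 had a symbol. Positions and exon lengths came from GENCODE v29 on GRCh38. Depth was 1.43e+07 to 2.78e+07 counts a library, and genes with few counts have less precise fold changes. In R 4.3.3 with edgeR 4.0.16, filterByExpr left 17960 genes with at least 99.9% of counts in every library, libraries were scaled by TMM, and all 12 were fitted with stiffness as the only term. Each SE was obtained from the fold change and the square root of F. Correlations used log2 CPM with a prior count of 2.

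Named genes were all members, up to 4 called genes per pathway list and comparison by smallest p, 9 genes in any case, and the 3 genes most like each called member. Some genes that this rule names are not reported here. The members and lists were chosen with earlier results of these data known. Alternatives were median-ratio scaling, library total alone, no filter, a filter of 1 CPM in 4 libraries, DESeq2 1.42.0, limma-voom in limma 3.58.1, a replicate block, the depth class as a term, a length and GC offset, fits of 2 groups, and leaving out each library. The edgeR step was tested on simulated counts for 8 against 1 kPa over 17960 genes and recovered 74% of 1.5-fold and 94% of 2-fold changes, with 14 false calls. Each simulated gene had the spread typical of its level, with no effect of replicate or depth class, and changed genes had at least 1 CPM. Those shares are therefore not the recovery for members with a wider spread, such as THBS1. No 2 libraries of a group agreed within sampling noise.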

Additional observations from a re-analysis of the deposited data

Results flagged for a closer look

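Of 30 groups of 4 libraries looked at (10 members at 3 stiffnesses), 2 held a library far from the rest, and chance alone marks about 1 in 20 groups. TGFBR2 had 168 CPM in 30 kPa replicate 4, while the other libraries at 30 kPa lay between 146 and 150 CPM. LTBP3 had 165 CPM in 8 kPa replicate 4, while the other libraries at 8 kPa lay between 126 and 130 CPM. The LTBP3 difference at 30 against 8 kPa passed the test without that library, where 1026 of 18229 tested genes passed.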

How the results depend on the processing

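Counts of genes past the threshold moved by over 1.5 times as follows, beside 2472 at 8 against 1 kPa, 0 at 30 against 8 kPa, 437 at 30 against 1 kPa, 1272 for the departure of 8 kPa and 1646 for any difference in edgeR. With the depth class as a term 0 genes were called at 8 against 1 kPa, at 30 against 1 kPa and for any difference. DESeq2 called 430, 1068, 2296 and 3117 genes at 30 against 8 kPa, at 30 against 1 kPa, for the departure and for any difference. Without a filter the counts were 330 at 30 against 8 kPa and 875 at 30 against 1 kPa, with library total alone 263 at 30 against 1 kPa, and with fits of 2 groups 1068 at 8 against 1 kPa and 61 at 30 against 8 kPa. Leaving out 1 library gave 534 to 3563 genes at 8 against 1 kPa, 0 to 1026 at 30 against 8 kPa, 50 to 676 at 30 against 1 kPa, 0 to 2870 for the departure and 230 to 3234 for any difference.

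Pairing by replicate number was not taken as shown, since not every same-numbered pair correlated at over 0.1 and the labels give the number no meaning: same-numbered libraries correlated at -0.134 to 0.369 in their deviations from the group means, other pairs at -0.299 to 0.241, and 6 of 12 libraries correlated best with their own number. With the replicate block 3273 genes were called at 8 against 1 kPa, 40 at 30 against 8 kPa, 974 at 30 against 1 kPa, 2096 for the departure and 2626 for any difference. At 8 against 1 kPa these included 2 members, TGFB1 (adjusted p = 0.0336 in edgeR) and TGFBI (0.00409).

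Members called at 8 against 1 kPa numbered 1 with DESeq2 (TGFBI), 1 with the length and GC offset (TGFB1), 2 without a filter (THBS1 and TGFBI) and 0 to 2 with a library left out. At 30 against 8 kPa a library left out gave 0 to 1, and at 30 against 1 kPa 0 to 1. At 30 against 1 kPa TGFBI was not called with the depth class as a term (0 members) or with library total alone (0 members, adjusted p = 0.0501 in edgeR). Its adjusted p over the 10 settings other than leaving out a library ran from 0.000318 to 0.502, and 8 of them held the call.

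Signs of some differences that did not pass the test turned. TGFB1 at 30 against 8 kPa was -0.00845 with the depth term and -0.00508 to 0.0775 with a library left out. TGFB2 at 30 against 1 kPa was 0.0391 in limma-voom and -0.305 to 0.199 with a library left out, and with the depth term it was -1.09, and -1.28 at 8 against 1 kPa beside -0.40 without it. TGFBR2 at 30 against 1 kPa was 0.0169 with library total alone, 0.000336 in limma-voom, 0.0157 without a filter and -0.0670 to 0.0538 with a library left out. LTBP3 at 30 against 1 kPa was -0.0452 with the depth term. With a library left out, TGFBR1 at 30 against 1 kPa ran from -0.0813 to 0.0169, THBS1 at 30 against 1 kPa from -0.269 to 0.129, and the departure of 8 kPa from -0.0147 to 0.0826 for TGFB3 and from -0.143 to 0.0205 for TGFBI.

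Per kb of the longest transcript the mean level was 30.6 CPM for TGFB1, 0.905 for TGFB3, 94.8 for LTBP1, 33.5 for LTBP3 and 289 for TGFBI. At 1, 8 and 30 kPa TGFB1 then took 95.4%, 95.7% and 95.9% of the ligands and LTBP1 75.5%, 74.2% and 71.6% of its family. The cause of these shifts was not tested, other than by the settings' own construction.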
